A study of Mus musculus with 4 samples.

Results

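Single-cell RNA profiles of mouse bone marrow were read for 10 genes of megakaryocytes and platelets, Pf4, Vwf, Itga2b, Gp1bb, Gp9, Treml1, Selp, F2r, Clu and Itgb3. These are 10 of the 32285 genes in the count matrices and were taken by symbol. The cells were LSK cells, the lineage-negative, Sca-1-positive, cKit-positive cells among which stem cells and early progenitors are found, sorted from C57BL/6 mice. Wild-type mice carried 2 floxed Sin3B alleles and no Cre (Sin3B F/F), and knockout mice carried the same alleles with Vav1-iCre, which is active throughout blood-forming cells. Homeostasis cells came from untreated male mice, and ages were not given in the sources used here. The other library came from mice given 1 intraperitoneal dose of 100 mg/kg 5-fluorouracil (5-FU), an agent that kills cycling cells, 9 days before harvest. In each condition the cells of 2 mice per genotype were combined, marked with an antibody hashtag for the genotype and run in 1 library, so there were 4 pools of different mice, and condition and library cannot be told apart.

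Platelets are shed by megakaryocytes, large cells that arise from progenitors shared with red cells and, by a shorter path, from stem cells already biased towards platelets. Such stem cells are commonly marked by transcripts of Vwf and Pf4. Itga2b and Itgb3 encode the 2 subunits of the fibrinogen receptor, Gp1bb and Gp9 encode subunits of the receptor that binds von Willebrand factor, and the granule proteins Pf4, Vwf and Selp are released or shown on the surface when platelets are activated. The question here was how these transcripts differed between stem and megakaryocyte-erythroid cells, and between genotypes within each.

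Promoters of 7 of the 10 genes were found in the RefSeq promoter table (GRCm38.p6), with none there for Vwf, Clu and Itgb3. The 250 bases before the start of 5 of them are shown, namely 4 of the 6 genes that were higher in megakaryocyte-erythroid cells (Pf4, Treml1, F2r, Gp9) and the gene that was lower there (Selp). Capitals mark GATAA, the letters of a GATA factor site, and GGAAG, those of an ETS factor site, on either strand (TTATC and CTTCC on the other). The Pf4 sequence is chr5:90772185-90772434 on the plus strand, Treml1 is chr17:48359666-48359915 on the plus strand, F2r is chr13:95618467-95618716 on the minus strand, Gp9 is chr6:87777820-87778069 on the plus strand and Selp is chr1:164115014-164115263 on the plus strand.
Pf4: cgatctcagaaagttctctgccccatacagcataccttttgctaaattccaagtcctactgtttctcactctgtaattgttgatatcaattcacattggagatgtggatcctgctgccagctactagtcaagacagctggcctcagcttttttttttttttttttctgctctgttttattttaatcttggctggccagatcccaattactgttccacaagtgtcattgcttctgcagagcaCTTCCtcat
Treml1: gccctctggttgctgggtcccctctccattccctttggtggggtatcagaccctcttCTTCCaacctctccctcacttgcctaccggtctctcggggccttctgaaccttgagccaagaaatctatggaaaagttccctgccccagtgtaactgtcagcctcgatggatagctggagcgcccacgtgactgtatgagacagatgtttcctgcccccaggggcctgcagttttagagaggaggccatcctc
F2r: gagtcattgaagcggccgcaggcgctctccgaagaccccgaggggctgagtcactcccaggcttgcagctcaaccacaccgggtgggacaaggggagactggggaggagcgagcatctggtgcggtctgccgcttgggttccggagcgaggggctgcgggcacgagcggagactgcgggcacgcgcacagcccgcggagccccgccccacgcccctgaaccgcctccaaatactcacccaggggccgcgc
Gp9: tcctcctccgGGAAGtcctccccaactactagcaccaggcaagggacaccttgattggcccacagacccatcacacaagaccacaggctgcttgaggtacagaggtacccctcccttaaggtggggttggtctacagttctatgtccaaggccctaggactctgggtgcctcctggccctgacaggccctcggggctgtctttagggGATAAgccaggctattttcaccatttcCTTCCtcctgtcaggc
Selp: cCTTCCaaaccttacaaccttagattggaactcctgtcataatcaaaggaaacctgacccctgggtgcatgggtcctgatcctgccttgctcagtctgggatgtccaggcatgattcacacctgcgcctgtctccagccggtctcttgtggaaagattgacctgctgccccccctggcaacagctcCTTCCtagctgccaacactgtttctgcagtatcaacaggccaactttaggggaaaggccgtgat

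GATAA lay in 1 of the 7 windows, that of Gp9, where it began 43 bases before the start, and in 23.0% of the 27025 promoters of the same length. GGAAG lay in 6 of the 7 windows and in 63.6% of all promoters, and F2r held neither. The Itga2b window, not printed because 180 of its bases are exonic in the GENCODE annotation, held GGAAG 4 times. The printed F2r window holds 21 bases that are exonic there. In that annotation (GENCODE M21, GRCm38) the genes lie apart from one another, Pf4 at chr5:90772435-90773383 and Vwf at chr6:125546774-125686679, for example, and all 10 are protein-coding. Gp1bb is the exception in how it could be counted: at chr16:18620317-18622403 on the minus strand it shares 91.1% of its exonic bases with Sept5 on the same strand, and reads there could not be given to 1 gene. Selp shares 4.21% and 9.93% of its exonic bases with genes on the opposite strand, the antisense gene Gm16587 and the lincRNA Gm16548.

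After filtering, the homeostasis library kept 10184 wild-type and 4108 knockout cells and the 5-FU library 4855 and 3307, with a median of 6607 to 10935 UMIs (counted RNA molecules) per cell. Cells were thinned to 4000 UMIs and placed in a stem gate when at least 4 of 10 stem markers (such as Procr, Hlf and Mecom) had a UMI, or in a megakaryocyte-erythroid gate when at least 3 of 12 markers (such as Gata1, Klf1 and Gfi1b) did, and not the other. No member was a marker. Cell numbers in the stem gate were 1767 (homeostasis wild type), 1133 (homeostasis knockout), 603 (5-FU wild type) and 673 (5-FU knockout), and in the megakaryocyte-erythroid gate 594, 306, 829 and 591. The 2 libraries shared 76 cell barcodes. Sin3b, the targeted gene, was at 81.7 CPM (the gene's UMIs in the summed cells, scaled so that every sum has the same total) in wild type and 23.3 in knockout at homeostasis, and at 113 and 15.1 after 5-FU, and was lower in knockout in both gates of both libraries. Another hashtag rule asked for 80% of a cell's hashtag UMIs in 1 tag. At homeostasis it left 868 knockout cells in place of 4108 (301 in the stem gate and 57 in the megakaryocyte-erythroid gate). It left 6137 wild-type cells there in place of 10184. The knockout values at homeostasis thus rest largely on cells that did not meet this rule. After 5-FU the rule kept more cells, 4051 knockout in place of 3307 and 4955 wild-type in place of 4855.

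The megakaryocyte-erythroid gate did not hold the same mix in every pool. Klf1, an erythroid transcription factor, was at 7.45 CPM in wild type and 19.0 in knockout at homeostasis and at 32.8 and 44.7 after 5-FU. Car1, an erythroid carbonic anhydrase, was at 46.4 and 217, then at 34.6 and 8.66. The median depth of this gate was 7655 and 7551 UMIs per cell at homeostasis but 11722 in wild type and 15722 in knockout after 5-FU. The part of these differences in the genotype values below was not tested. The 8 genes taken for mature platelets were Ppbp, Gp1ba, Gp5, Gp6, Tubb1, Alox12, Clec1b and Nrgn. Gp6 and Tubb1 were at or below 0.373 CPM in both gates of all pools. The summed level of the list without Nrgn, which most LSK cells carry, was 9.51 to 16.2 CPM in the stem gate. It was 17.2 to 70.8 in the megakaryocyte-erythroid gate, where Gp5 made up most of it.

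The megakaryocyte-erythroid gate carried more Pf4, Treml1, Itga2b, F2r, Gp9 and Vwf than the stem gate, and less Selp, while Clu and Itgb3 did not pass the test. The comparison used UMI sums of both gates in the 4 pools, paired by pool, with edgeR's quasi-likelihood test and Benjamini-Hochberg adjustment over 13084 genes. Of the 9 members tested, 6 were higher and 1 was lower at an adjusted p under 0.05, against 18.0% of all tested genes higher and 19.3% lower (37.2% in either direction). The median log2 fold change was 1.41 over the members and -0.04 over all genes.

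**Figure D1:**
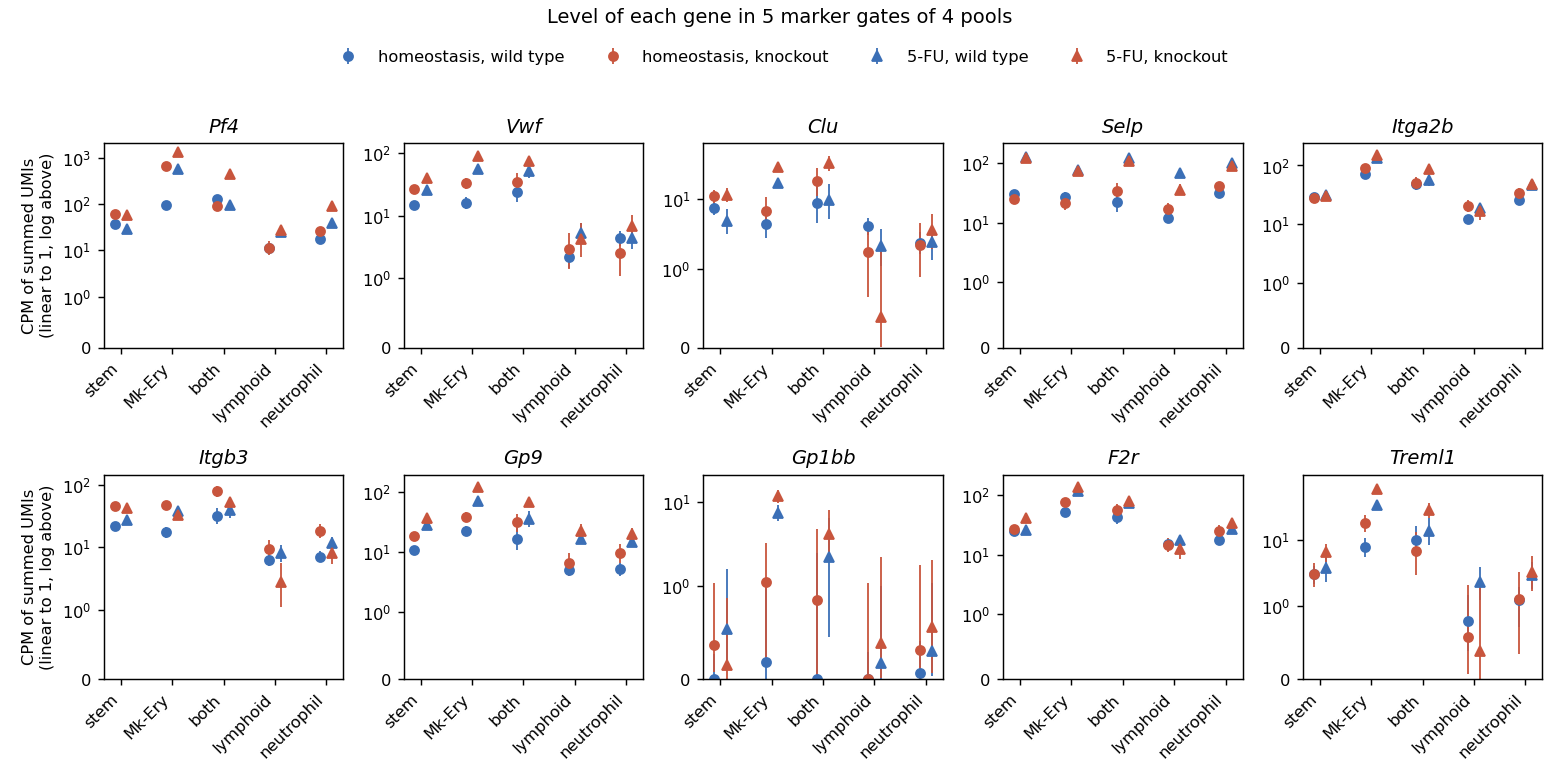
Level of each of the 10 genes, in CPM of summed UMIs (linear up to 1, logarithmic above), in cells that passed the stem list, the megakaryocyte-erythroid list (Mk-Ery), both lists, the lymphoid list or the neutrophil list, for wild-type (blue) and knockout (red) pools at homeostasis (circles) and after 5-FU (triangles). Bars are 95% Poisson intervals, which cover counting error only. Pf4 reached 1357 CPM in the Mk-Ery gate of the 5-FU knockout pool and was at or below 28.3 CPM in the lymphoid gate of the 4 pools.

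Among the granule proteins, Pf4, the chemokine platelet factor 4, differed most. In the stem gate it was at 37.1 CPM in wild type and 62.2 in knockout at homeostasis, and at 28.8 and 58.7 after 5-FU. In the megakaryocyte-erythroid gate the same pools were at 97.5, 658, 584 and 1357 CPM. All 4 values of the second gate lay above all 4 of the first, but the share of all genes for which this holds was not counted. The log2 fold change was 3.52 (SE 0.47, n = 4 pairs, edgeR adjusted p = 0.000854), and the fold in single pools ran from 2.62 in homeostasis wild type to 23.1 in 5-FU knockout.

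Vwf, the adhesive protein that tethers platelets to the vessel wall, was nearly level between the gates at homeostasis, with 14.9 CPM in the stem gate and 15.9 in the megakaryocyte-erythroid gate of wild type, and 27.1 and 33.2 in knockout. After 5-FU it was at 26.3 and 55.3 CPM in wild type and at 39.5 and 89.4 in knockout. The pooled log2 fold change was 0.82 (SE 0.20, n = 4 pairs, edgeR adjusted p = 0.0106). The call was lost without the 5-FU wild-type pool, at an adjusted p of 0.0643, and with gates drawn from all UMIs of a cell, at an adjusted p of 0.527 and a log2 fold change of 0.25.

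Clu encodes clusterin, a secreted chaperone stored in platelet granules and also a marker of platelet-biased stem cells. Its gates changed order between conditions. At homeostasis it was at 7.35 CPM in the stem gate against 4.395 in the megakaryocyte-erythroid gate of wild type, and at 10.8 against 6.72 in knockout, on 99, 23, 88 and 18 UMIs. The counting interval of this log2 ratio was -1.47 to -0.08 in wild type and took in 0 in knockout (-1.5 to 0.06). After 5-FU Clu was at 4.86 against 16.6 CPM in wild type and 11.5 against 27.8 in knockout. In the lymphoid gate Clu was at 4.07 CPM (wild type) and 1.76 (knockout) at homeostasis, and at 2.15 and 0.393 after 5-FU. The fit over all pools gave 0.68 (SE 0.39, n = 4 pairs, edgeR adjusted p = 0.203), and 1.08 with an adjusted p of 0.0230 without the homeostasis wild-type pool.

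Selp, or P-selectin, the granule membrane protein by which activated platelets bind leukocytes, was the member that was lower in the megakaryocyte-erythroid gate. After 5-FU it was at 127 and 121 CPM in the stem gate of wild type and knockout and at 77.7 and 74.0 in the other gate. At homeostasis the levels were lower and close, 30.8 and 24.7 against 27.3 and 21.3 CPM. The log2 fold change was -0.42 (SE 0.09, n = 4 pairs, edgeR adjusted p = 0.00746), and the adjusted p was 0.103 without the 5-FU wild-type pool. Selp was counted outside both gates too, at 31.1 to 99.5 CPM in the neutrophil gate and 11.8 to 68.4 in the lymphoid gate.

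The integrin partners parted. Itga2b, the alpha subunit also known as CD41, was between 28.2 and 30.9 CPM in the stem gate of all 4 pools, and at 72.4 and 89.2 CPM (homeostasis wild type and knockout) and 135 and 151 (5-FU) in the megakaryocyte-erythroid gate. The log2 fold change was 1.93 (SE 0.17, n = 4 pairs, edgeR adjusted p = 2.57e-04). Itgb3, the beta subunit, was at 21.9 and 46.0 CPM in the stem gate and 17.4 and 47.0 in the megakaryocyte-erythroid gate at homeostasis, and at 27.7 and 42.4 against 37.6 and 32.6 after 5-FU. Its gates overlapped fully, with a log2 fold change of 0.02 (SE 0.14, n = 4 pairs, edgeR adjusted p = 0.921). In cells that passed both lists Itgb3 was at 31.9 and 78.4 CPM at homeostasis and at 39.0 and 53.8 after 5-FU, above its level in either gate of the same pool, though for 5-FU wild type within the counting interval (29.2 to 51.0).

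Gp9, a subunit of the von Willebrand factor receptor, was at 10.8 and 18.5 CPM in the stem gate and 22.0 and 38.4 in the megakaryocyte-erythroid gate at homeostasis. After 5-FU it was at 27.9 and 36.1 against 70.8 and 119. It was higher in the second gate of every pool, by 2.03 to 3.28 fold, and the log2 fold change was 1.41 (SE 0.14, n = 4 pairs, edgeR adjusted p = 3.43e-04). Gp1bb, its partner, was hardly counted and did not pass the filter on low counts. It had 0, 3, 3 and 1 UMIs in the stem gate of the homeostasis wild-type, homeostasis knockout, 5-FU wild-type and 5-FU knockout pools, and 1, 3, 80 and 116 in the megakaryocyte-erythroid gate. The log2 ratio between the gates after 5-FU was 3.56 (95% counting interval 2.17 to 6.08) in wild type and 5.62 (3.70 to 11.5) in knockout, with 0.5 counts added to each sum.

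Treml1, a receptor kept in platelet granules, was scarce in the stem gate, with 3.05 and 3.07 CPM at homeostasis and 3.78 and 6.59 after 5-FU. The megakaryocyte-erythroid gate held 7.83, 18.3, 34.0 and 60.2 CPM in the same order of pools. The log2 fold change was 2.75 (SE 0.28, n = 4 pairs, edgeR adjusted p = 3.43e-04). F2r, the thrombin receptor PAR1, was at 24.6, 27.3, 26.1 and 40.8 CPM in the stem gate and at 52.4, 77.6, 117 and 141 in the other. Its log2 fold change was 1.72 (SE 0.17, n = 4 pairs, edgeR adjusted p = 3.20e-04).

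**Figure D2:**
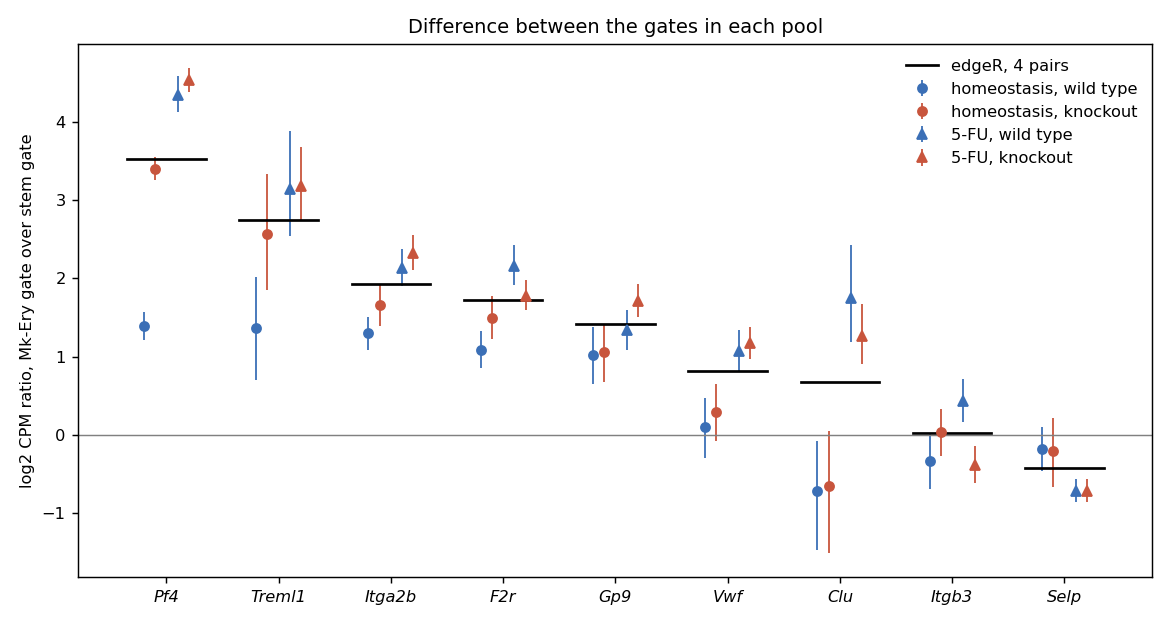
Log2 ratio of CPM in the megakaryocyte-erythroid gate over the stem gate for 9 genes, in each of the 4 pools (blue wild type, red knockout, circles homeostasis, triangles 5-FU) with 95% counting intervals, and the edgeR estimate over the 4 pairs as a black line. Both Clu circles lie below 0 and both Clu triangles above it, and both Selp triangles lie at -0.71.

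The gate difference was larger after 5-FU than at homeostasis for 7 of the 9 members tested. Each condition was 1 library, counted with a different software version, and the part of this was not tested. The megakaryocyte-erythroid list was passed by 9.11% of cells at homeostasis and by 23.6% after 5-FU. Its gate held a mean of 5.6 (wild type) and 6.7 (knockout) stem-marker UMIs per 4000 at homeostasis. After 5-FU it held 2.9 and 2.6, and the part of this in the gate difference was not tested. A gate by condition term over the same 8 sums, chosen after the first fit had been seen, passed for 4.49% of all genes in the higher direction and 1.80% in the lower (6.28% in all). The members that passed were Clu (log2 difference 2.32, SE 0.30, edgeR adjusted p = 1.83e-04), Pf4 (2.12, SE 0.35, adjusted p = 0.00128), Treml1 (1.41, SE 0.35, adjusted p = 0.0198), Vwf (1.09, SE 0.17, adjusted p = 0.00104), Itga2b (0.92, SE 0.15, adjusted p = 0.00127), F2r (0.82, SE 0.16, adjusted p = 0.00489) and Gp9 (0.66, SE 0.18, adjusted p = 0.0367). Selp was at -0.37 (adjusted p = 0.156) and Itgb3 at 0.29 (adjusted p = 0.507). The same term for genotype passed for 0 of 13084 genes by edgeR, with 218 at an unadjusted p under 0.05, so no genotype effect that differs between the gates was called.

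In knockout cells of the stem gate, Pf4, Vwf, Itgb3, Gp9 and Clu were higher than in wild type over both libraries, by 1.29 to 2.33 fold within a library. The stem gate itself held a mean of 12.4 UMIs of the stem marker list per 4000 in wild type and 14.1 in knockout at homeostasis, and 9.33 and 10.4 after 5-FU. Of the lymphoid list it held 2.21 (wild type) and 1.37 (knockout), then 0.843 and 0.444. The part of these shifts in the genotype values was not tested. These genotype fits had 1 pool per genotype and library, 2 pairs in all and 1 residual degree of freedom, so their p-values lean on the spread shared among genes. Of 9 members tested in the stem gate, 5 were higher and 0 lower, against 2.71% of 13572 genes higher and 2.31% lower (5.02% in either direction). The median log2 fold change over the members was 0.57, against 0.00 over all genes. The log2 fold changes with edgeR were 0.88 for Itgb3 (SE 0.13, adjusted p = 1.93e-04), 0.87 for Pf4 (SE 0.11, adjusted p = 4.81e-05), 0.83 for Clu (SE 0.24, adjusted p = 0.0491), 0.75 for Vwf (SE 0.13, adjusted p = 0.00161) and 0.57 for Gp9 (SE 0.15, adjusted p = 0.0267). Itgb3, Vwf, Selp and Clu are among genes the study grouped by these same cells, so its grouping and the values here are not independent. With DESeq2 only Pf4 passed (log2 fold change 0.89, adjusted p = 0.0454), with Itgb3 at an adjusted p of 0.256, but DESeq2 gave an adjusted p to 3 of the members alone (Pf4, Itgb3 and Selp), and none to Vwf, Gp9 and Clu. The median log2 fold change of the members was 0.58 with DESeq2. With edgeR, Pf4 and Itgb3 passed under every other setting tried, while Vwf lost its call with 1 marker more per gate (adjusted p = 0.143), Gp9 with that, the 80% hashtag share and lineage cells kept (0.257, 0.0720 and 0.0745), and Clu with these (0.150, 0.291 and 0.104), library-size scaling (0.0692) and the robust fit (0.0522).

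Within each library the stem-gate ratios ran the same way for these 5 genes. At homeostasis the ratio of knockout over wild type was 2.10 for Itgb3, 1.82 for Vwf, 1.71 for Gp9 and 1.67 for Pf4, and Clu was at 1.47. After 5-FU it was 2.33 for Clu, 2.04 for Pf4, 1.72 for Treml1, 1.56 for F2r, 1.53 for Itgb3 and just past 1.5 for Vwf (a log2 ratio of 0.59), and Gp9 was at 1.29. With 1 marker more per gate the Treml1 ratio turned to -0.26 on the log2 scale. So 4 of the 9 members with at least 20 UMIs were up by 1.5-fold or more at homeostasis and 6 of 9 after 5-FU (2 with 1 marker more per gate, and 3 with a shorter megakaryocyte-erythroid marker list), against 5.88% and 5.22% of all genes with as many UMIs. None of the 9 was down by as much in either library, and 13.1% and 10.4% of all genes were past 1.5-fold in either direction. Itga2b was at 0.960 and 0.974 of its wild-type level, and both counting intervals of the log2 ratio took in 0. Selp was lower in knockout at homeostasis, 0.801 of wild type with a log2 interval of -0.57 to -0.08, and at 0.953 after 5-FU, where the interval took in 0.

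In the megakaryocyte-erythroid gate Treml1, Vwf, Gp9, Clu and F2r were higher in knockout. The mature platelet list without Nrgn was at 17.2 CPM in wild type and 29.1 in knockout of this gate at homeostasis. After 5-FU the list was at 56.4 and 70.8. Most of each sum was 1 gene, Gp5, at 13.2 and 21.3 CPM at homeostasis and 40.3 and 43.7 after 5-FU. The part of this in the genotype values was not tested. Of 10 members tested, 6 were higher and 0 lower by edgeR, against 1.97% of 13135 genes higher and 1.83% lower (3.81% in either direction), with a median log2 fold change of 0.77 over the members and 0.01 over all genes. The log2 fold changes were 0.95 for Treml1 (SE 0.16, adjusted p = 6.56e-07), 0.84 for Vwf (SE 0.14, adjusted p = 8.55e-07), 0.80 for Gp9 (SE 0.14, adjusted p = 1.07e-06), 0.75 for Clu (SE 0.20, adjusted p = 0.0104) and 0.41 for F2r (SE 0.12, adjusted p = 0.0217). This fit took 1 spread for every gene, so none of these p-values measures how that gene's own difference varied between the libraries. The sixth, Pf4, had the largest value, 1.95, but its difference was unlike in the 2 libraries. A robust fit, added after seeing this, gave Pf4 an adjusted p of 0.668, and DESeq2 gave 0.218. DESeq2 gave an adjusted p to 4 of the 10 members (Pf4, Gp9, F2r and Itga2b) and called none of these, and 25 of 3458 genes in all, with 303 at an unadjusted p under 0.05. Their fold changes were much the same, with a median log2 value of 0.76 over the members. With library-size scaling, hashtags set by an 80% share, gates from all UMIs or a shorter marker list, 4 members were called by edgeR, Clu and F2r being the ones lost.

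Pf4 was at 97.5 CPM in wild type and 658 in knockout at homeostasis, a log2 ratio of 2.76 (95% counting interval 2.61 to 2.90), and at 584 and 1357 CPM after 5-FU, a log2 ratio of 1.22 (1.17 to 1.26). Few cells carried most of it. In the homeostasis knockout gate 8 of 306 cells held 50% of the 1765 Pf4 UMIs, 10 cells held 60.8%, and 1 cell held 177. In the wild-type gate of that library 13 of 594 cells held 50% of 510 UMIs. With each cell thinned to 4000 UMIs, Pf4 was seen in 15.8% (homeostasis wild type), 28.8% (homeostasis knockout), 27.6% (5-FU wild type) and 45.7% (5-FU knockout) of the gate. In the lymphoid gate the shares were 3.40%, 4.74%, 8.40% and 11.8%. The lymphoid gate is not an empty baseline. In the same order of pools it held a mean of 2.5, 2.4, 3.4 and 3.1 megakaryocyte-erythroid marker UMIs per 4000. Without thinning the Pf4 shares of the megakaryocyte-erythroid gate were 21.2%, 41.8%, 42.7% and 61.4%.

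Vwf was also carried by few cells at homeostasis, where 8 of 306 knockout cells held 50% of the 89 Vwf UMIs and 10 cells held 61.8%, against 34.9% of 83 UMIs in the top 10 cells of wild type. The share of cells with Vwf there was 5.72% in wild type and 7.52% in knockout at 4000 UMIs and 10.8% and 11.4% unthinned, nearly level, while after 5-FU it was 14.4% and 22.0% thinned.

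Itgb3 moved unlike the other members in this gate. At homeostasis it was at 17.4 CPM in wild type and 47.0 in knockout, a log2 ratio of 1.43 (95% counting interval 1.03 to 1.84). After 5-FU it was at 37.6 and 32.6 CPM, a log2 ratio of -0.21 (-0.42 to 0.01). The stem gate showed no such turn, with log2 ratios of 1.07 and 0.61. Over both libraries the edgeR estimate in the megakaryocyte-erythroid gate was 0.43 (SE 0.15, adjusted p = 0.0862), which did not pass, and 0.58 with an adjusted p of 0.00226 once cells of both lists were added to the gate.

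The remaining members did not pass the test. Gp1bb in the 5-FU megakaryocyte-erythroid gate was at 7.36 CPM in wild type and 11.6 in knockout, a log2 ratio of 0.65 (0.23 to 1.08), and its edgeR value was 0.78 (SE 0.32, adjusted p = 0.180). Itga2b was at 0.24 (SE 0.12, adjusted p = 0.293) and Selp at -0.12 (SE 0.14, adjusted p = 0.792). Within the libraries, 6 of the 9 members with at least 20 UMIs were up by 1.5-fold or more at homeostasis (Pf4, Itgb3, Treml1, Vwf, Gp9 and Clu, the last on 41 UMIs), and 6 of 10 after 5-FU (Pf4, Treml1, Gp9, Clu, Vwf and Gp1bb). The share of all genes with as many UMIs was 5.36% and 3.82% upwards, and 11.8% and 11.5% in either direction.

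**Figure D3:**
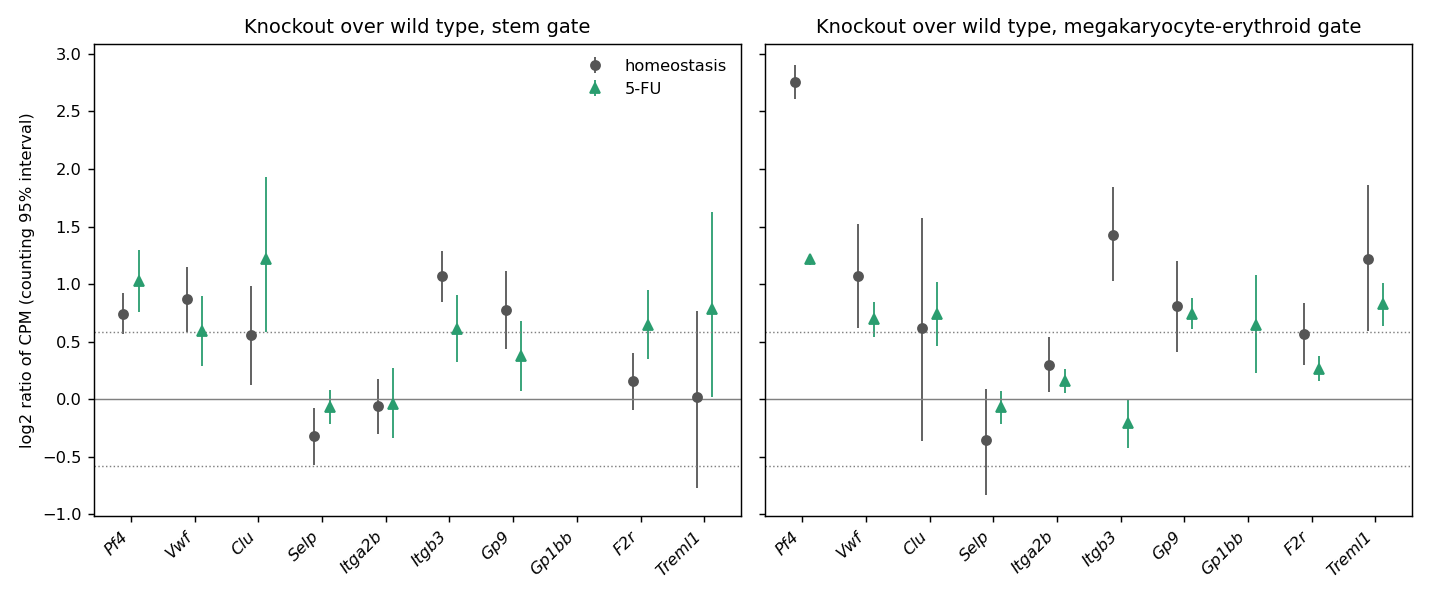
Log2 ratio of knockout over wild-type CPM for each gene with at least 20 UMIs over both pools, in the stem gate (left) and the megakaryocyte-erythroid gate (right), at homeostasis (grey circles) and after 5-FU (green triangles). Bars are 95% counting intervals and dotted lines mark 1.5-fold; Pf4 stands at 2.76 and 1.22 on the right, Itgb3 at 1.43 and -0.21, Itga2b lies between -0.06 and 0.30, and Selp is below 0 in both panels.

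Over all kept cells, which also carries the mix of cell types in a pool, 6 of 10 members were higher in knockout and 0 lower by edgeR, against 0.965% of 17202 genes higher and 0.849% lower (1.81% in either direction). Pf4 was at a log2 fold change of 1.51 (SE 0.12, adjusted p = 0.00368), Vwf at 0.97 (SE 0.10, adjusted p = 0.00814) and Gp9 at 0.95 (SE 0.09, adjusted p = 0.00623), and these 3 also passed with DESeq2, with hashtags set by an 80% share and with lineage cells kept. Clu (0.87), Treml1 (0.86) and F2r (0.50) passed with adjusted p-values of 0.0498, 0.0300 and 0.0378 and lost the call under the last 2 of these settings, Clu and Treml1 also with DESeq2.

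The share of stem-gate cells in which a gene was seen was also higher in knockout for Vwf, Itgb3 and Pf4, though not always by as much as CPM. Vwf was seen at 4000 UMIs in 5.66% (homeostasis wild type), 8.30% (homeostasis knockout), 8.46% (5-FU wild type) and 13.4% (5-FU knockout) of cells, and in 0.641% to 2.11% of lymphoid-gate cells. Without thinning the stem shares were 8.66%, 12.7%, 14.6% and 24.4%. Itgb3 was seen in 7.92%, 14.8%, 9.95% and 15.5% of thinned stem cells, and in 0.844% to 3.24% of lymphoid cells, so both genes were well above the lymphoid share in all pools. Pf4 was seen in 11.7%, 14.1%, 10.8% and 17.8%, nearer the lymphoid shares after 5-FU. Its 2 homeostasis shares were closer together than its CPM, which had a ratio of 1.67. There 10 stem-gate cells held 24.0% of the Pf4 UMIs in wild type and 30.0% in knockout, and 1 knockout cell held 73 of 507. Itga2b stayed between 8.91% and 9.78%. Selp was seen in fewer knockout than wild-type cells of the stem gate, 8.03% against 9.90% at homeostasis and 25.7% against 31.5% after 5-FU. Its CPM after 5-FU was nearly level, at 0.953 of wild type. Median depth was 6994 and 7369 UMIs per lymphoid cell at homeostasis and 9020 and 9167 after 5-FU, against 6317, 6184, 8233 and 8396 in the stem gate.

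Treml1 was seen in the megakaryocyte-erythroid gate in 2.53%, 3.92%, 11.8% and 19.8% of cells, against at most 0.954% of lymphoid cells in any pool. F2r was seen in 17.2%, 21.6%, 27.9% and 36.9%, and Gp9 in 8.08%, 11.1%, 22.6% and 32.0%. The lymphoid shares were 5.84%, 5.99%, 5.92% and 2.53% for F2r and 2.05%, 2.74%, 5.15% and 8.86% for Gp9, the latter also above wild type in knockout. In the megakaryocyte-erythroid gate of both libraries the knockout share was above that of wild type for all 3 genes. Itga2b was seen in 21.0% and 21.6% at homeostasis and 35.2% and 34.9% after 5-FU, nearly level between genotypes.

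Most cells carried few of the 10 genes at once. At 4000 UMIs per cell, 3 or more of the genes were seen in 3.11% of stem-gate cells of wild type and 4.59% of knockout at homeostasis, and in 5.47% and 11.1% after 5-FU. The megakaryocyte-erythroid shares were 7.74% and 15.4%, then 29.3% and 41.1%. Cells with 5 or more made up 7.12% of wild-type and 13.4% of knockout cells of that gate after 5-FU, and at most 0.446% of the stem gate in any pool. Cells are not replicates, so these shares carry no test.

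**Figure D4:**
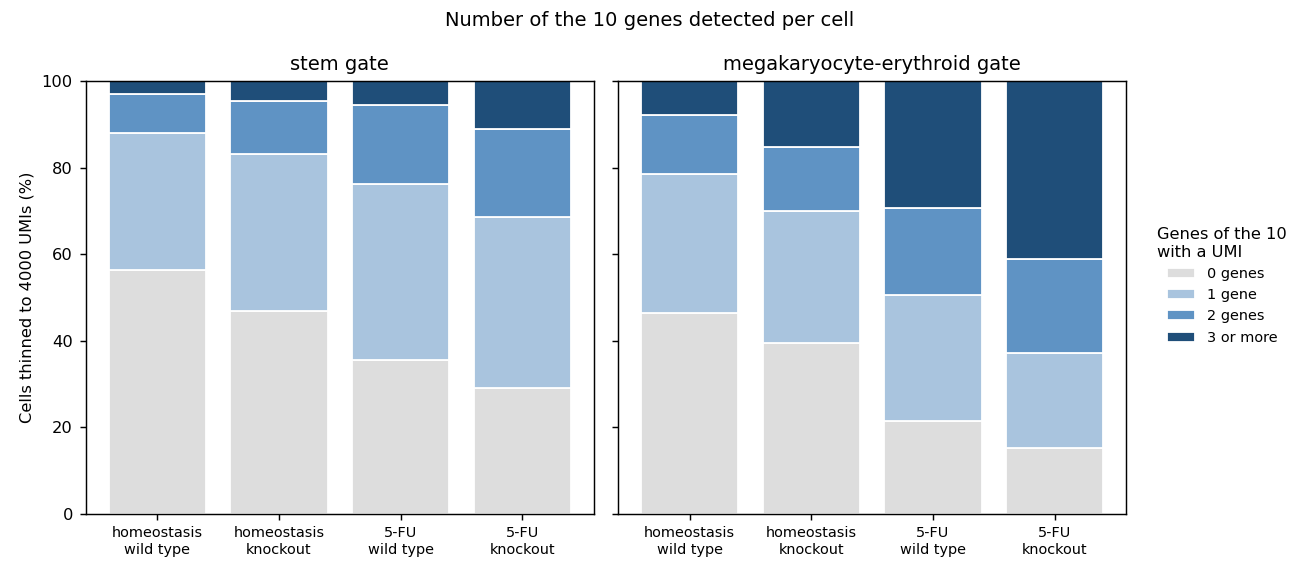
Percent of cells, thinned to 4000 UMIs, in which 0, 1, 2 or at least 3 of the 10 genes had a UMI, for the stem gate (left) and the megakaryocyte-erythroid gate (right) of each pool. The darkest part, 3 or more genes, grows from 3.11% in the stem gate of homeostasis wild type to 41.1% in the megakaryocyte-erythroid gate of 5-FU knockout.

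Vwf and Pf4 kept different company in the 2 gates. In the stem gate, 11.3% of 194 cells with Vwf also had Pf4 at homeostasis, against 12.7% of 2706 cells without Vwf, and after 5-FU 10.6% of 141 against 15.0% of 1135. In the megakaryocyte-erythroid gate after 5-FU, 72.3% of 249 cells with Vwf also had Pf4, against 27.2% of 1171 without, and at homeostasis 40.4% of 57 against 18.9% of 843. Stem-gate cells with Vwf had other partners: 12.4% also had Clu at homeostasis, against 2.07% of those without Vwf, and 21.7% had Itgb3 against 9.83%. After 5-FU the same shares were 8.51% against 2.20% for Clu, 20.6% against 11.9% for Itgb3 and 40.4% against 27.0% for Selp. These are shares over cells of both genotypes and carry no test.

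Genes were ranked by how closely they followed Pf4 or Vwf over 16 sums, the stem, megakaryocyte-erythroid, lymphoid and neutrophil gates of 4 pools, on log2 CPM centred within each pool. The 5 closest to Pf4 were Unc119, Klf1, Gp5, Icam4 and Klhl22, with Pearson r of 0.99 down to 0.969 over 13395 genes, and Klf1 was itself a marker of the gate. The 5 closest to Vwf were Ehd3, Atp8a1, Tent5c, Tspan8 and Chchd7, with r of 0.987 down to 0.976. The 2 lists shared no gene.

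A wider list of 36 other megakaryocyte and platelet genes was less uniform. Between the gates 30 could be tested, of which 13 were higher in the megakaryocyte-erythroid gate and 6 lower, against 18.0% and 19.3% of all genes, so the lower count was near the background, with a median log2 fold change of 0.19. The largest changes were in P2ry1, a receptor for ADP (2.53, edgeR adjusted p = 1.59e-04), Gp5, a further subunit of the von Willebrand factor receptor (2.44, adjusted p = 5.00e-04), F2rl2, a thrombin receptor (1.94, adjusted p = 0.0108), and Gp1ba, the subunit that binds the ligand (1.88, adjusted p = 9.10e-04). Plek (1.18), Cavin2 (1.07), Nrgn (0.87) and Rab27b (0.86) followed, all higher. Gp5 was at 4.86 to 5.33 CPM in the stem gate of the 4 pools and at 13.2, 21.3, 40.3 and 43.7 in the other gate. Of 6 transcription factors, Runx1 (0.25, adjusted p = 0.0232) and Mef2c (0.39, adjusted p = 0.00897), named after their values were seen, were higher. Runx1 lost the call without the 5-FU wild-type pool (adjusted p = 0.0531) and Mef2c with gates from all UMIs (0.0542).

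With genotype, 3 of 31 of these other genes were higher in the stem gate of knockout and 1 was lower, against 2.71% and 2.31% of all genes. Among the higher genes were Cavin2 (1.07, edgeR adjusted p = 0.00116) and Mmrn1 (0.44, adjusted p = 0.00723), and Itga2 was the lower one (-0.69, adjusted p = 0.0375). Itga2 lost the call with the 80% hashtag share, lineage cells kept and 1 marker more, and had no adjusted p with DESeq2. Mmrn1 lost it with DESeq2, the 80% share and 1 marker more, and Cavin2 with DESeq2 and the robust fit. These 3 genes were chosen after their values were seen. In the megakaryocyte-erythroid gate 6 of 33 were higher and 0 lower, against 1.97% and 1.83% of all genes. That count fell to 3 with library-size scaling, the 80% hashtag share, 1 marker more, gates from all UMIs or the shorter marker list, and to 1 of 16 with DESeq2. Over all cells 2 of 34 were higher, against 0.965% of all genes, namely Cavin2 (1.09, adjusted p = 0.00419) and Mmrn1 (0.59, adjusted p = 0.0290). Mmrn1 lost the call with lineage cells kept (adjusted p = 0.0631), and the count was 5 of 33 with DESeq2 and 6 of 36 with no low-count filter. None of the 6 transcription factors passed in any of the 3 genotype fits by edgeR.

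Free RNA was read from barcodes under 100 UMIs in the unfiltered homeostasis library, 2193328 barcodes with 5372413 UMIs. They are called droplets here, but how many were true droplets was not tested. Leaving out Clu and Gp1bb (1 UMI), the other members, with at least 16 UMIs each there, stood at 0.818 to 1.10 times their level in kept cells. Clu was apart, at 496 CPM in those droplets and 4.19 in the cells. The droplets also held Krt14, a skin keratin, at 726 CPM against 0.148 in cells, and Ctrb1, a pancreatic enzyme, at 253 against 0.0784, both named after their values were seen. Spread over all 2193328 barcodes, Clu was at 0.00122 UMIs each, and a stem-gate cell held 0.0560 in wild type and 0.0777 in knockout. With the number of true droplets unknown, these values cannot be set against each other. The part of this RNA in the Clu counts of cells was not tested.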

How the data were processed

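Unique molecular identifier (UMI) counts per gene and cell, and counts per hashtag, were deposited as raw counts made by the authors with Cell Ranger (version 4 at homeostasis and 6.0.1 after 5-FU, per the file headers). The submitters' processing notes name mm9, Cell Ranger, Seurat and DESeq2. Gene names of the homeostasis matrix came from the 5-FU feature list, whose row order was checked. The homeostasis matrix was unfiltered, and barcodes with at least 2921 UMIs were taken as cells. Hashtags were called with HTODemux (Seurat 5.3.0), which set cells with both tags aside as doublets (6.02% and 3.40%) and left 26.3% and 25.8% untagged. Cells within the outer 2% of UMIs, genes or mitochondrial share, or with at least 2 UMIs of 9 lineage genes, were removed. The study's further removal of lineage-primed cells was not repeated here.

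UMI sums per pool and gate were tested with edgeR 4.0.16 (TMM, filterByExpr, quasi-likelihood, Benjamini-Hochberg over all genes, threshold 0.05), with the pool as a block between gates and the library as a block between genotypes. The scripts were tested on simulated data. Replicates were pools of 2 mice. The gate p-values rest on how the gate difference varied between pools. The genotype p-values of the stem gate and of all kept cells rest on how the genotype difference varied between the 2 libraries. These and the gate p-values also lean on a spread shared among genes. The genotype fit of the megakaryocyte-erythroid gate rests wholly on that shared spread. Its p-values do not measure how a gene's difference varied between the libraries. Ratios within a library carry 95% counting intervals (Clopper-Pearson) and no test. All intervals cover counting error only. Cells below 4000 UMIs entered no gate. Depth in the gates was 2680718 to 13462863 UMIs per sum. Alternatives were DESeq2 1.42.0, library-size scaling, no filter on low counts, other hashtag, lineage and gate rules, leaving out pools, per-cell means, and, chosen after seeing the data, a robust fit and the gate by condition and gate by genotype terms.

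The members and lists were chosen with earlier results of these data known. Named were all 10 members, up to 8 other megakaryocyte genes with the largest gate change past the threshold, and the 5 genes most like Pf4 and Vwf. Further genes named were markers or were chosen after their values were seen. Not every gene counted in the wider list is named here.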

Additional observations from a re-analysis of the deposited data

Results flagged for a closer look

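The difference between the megakaryocyte-erythroid and stem gates was itself different after 5-FU and at homeostasis, by the gate by condition term of edgeR, for Clu (2.32 on the log2 scale), Pf4 (2.12), Treml1 (1.41), Vwf (1.09), Itga2b (0.92), F2r (0.82) and Gp9 (0.66). For all 7 the difference was larger after 5-FU, when the megakaryocyte-erythroid gate also held fewer stem-marker UMIs per cell than at homeostasis. Each condition was 1 library of 2 pools, so condition and library cannot be told apart. The mature platelet list without Nrgn moved with condition in the megakaryocyte-erythroid gate. Its sum was 17.2 and 29.1 CPM at homeostasis and 56.4 and 70.8 after 5-FU. Most of it was Gp5, at 13.2 and 21.3 CPM and then at 40.3 and 43.7. The part of these in the result was not tested.

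Clu stood out in the droplets under 100 UMIs of the homeostasis library, where its CPM was 118 times that in the kept cells. Those barcodes were not themselves used in a comparison between gates or genotypes. The part of such RNA in the Clu counts of cells, which those comparisons did use, was not tested.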

How the results depend on the processing

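The 7 members called between the gates numbered 6 to 9 under the other settings, and 5 to 8 when 1 pool was left out; the 4873 genes called in all became 2859 (without the 5-FU wild-type pool) to 5003 when 1 pool was left out. In the stem gate, 5 members and 681 genes were called between genotypes, against 1 (of 3 given an adjusted p) and 81 with DESeq2, 3 and 348 with hashtags set by an 80% share, 3 and 394 with lineage cells kept, and 2 and 421 with 1 marker more per gate. In the megakaryocyte-erythroid gate the 6 members and 500 genes became 0 (of 4 given an adjusted p) and 25 with DESeq2, 4 and 246 with library-size scaling, 4 and 158 with hashtags set by an 80% share and 4 and 173 with a marker list of Gata1, Gfi1b, Zfpm1, Mfsd2b and Cnrip1 alone. Over all cells the 6 members became 3 with the 80% share and 3 with lineage cells kept, and the 312 genes 204 with DESeq2, 612 with no low-count filter, 186 with the 80% share and 133 with lineage cells kept. Within libraries, the 6 members past 1.5-fold after 5-FU became 2 in the stem gate with 1 marker more, 3 there with the shorter marker list and 3 in the megakaryocyte-erythroid gate with the 80% share. The Treml1 ratio in the 5-FU stem gate turned to -0.26 on the log2 scale with 1 marker more. The cause of these changes was not tested. Of the fold changes of single members under other settings, 308 kept direction and side of the threshold, 35 lost the call and 3 gained it. Of the shares of cells with a member's UMI, 71 moved past their interval without thinning and 10 did not. Gp1bb had 0 to 3 UMIs per pool in both gates at homeostasis and in the stem gate after 5-FU, below the 20 UMIs asked of a genotype ratio.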
